A study of Mus musculus with 4 samples.

Results

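Aass, Aldh7a1, Aadat, Dhtkd1, Dlst, Dld, Gcdh and Slc25a21 carry the main route of lysine breakdown in mitochondria. They were taken by symbol from a table of 46603 mouse gene IDs, in which each of the 8 symbols had 1 row. The set was chosen by pathway and selected on the deposited mean counts of groups A and B, and it is led by Aass. All differences between the groups below are therefore descriptions of the chosen genes, and the p-values printed for them describe the table and support nothing. All 8 had reads, and 7 of the 8 had a mean of at least 10 normalized counts. Normalized counts are read counts scaled by a size factor for each library.

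Aass, a bifunctional enzyme, joins lysine to 2-oxoglutarate and then splits the product, saccharopine, into glutamate and aminoadipic semialdehyde. Aldh7a1 oxidises that aldehyde to aminoadipate, Aadat turns aminoadipate into 2-oxoadipate, and a dehydrogenase complex built from Dhtkd1, Dlst and Dld makes glutaryl-CoA from it. Gcdh then yields crotonyl-CoA, and Slc25a21 carries 2-oxoadipate across the inner mitochondrial membrane. The route is best known from liver, kidney and brain, where loss of Aldh7a1 or Gcdh causes inherited disease in children.

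The study sequenced polyadenylated RNA of mouse embryonic stem cells, with 2 samples of wild type (Gsk3a+/+;Gsk3b+/+) and 2 of the double knockout Gsk3a-/-;Gsk3b-/-, which lacks both forms of glycogen synthase kinase 3. The label for age reads embryonic day 16 for all 4, and the design text gives another value. All cells were kept on gelatin with irradiated mouse embryonic fibroblasts as feeders, in serum medium with leukaemia inhibitory factor, so fibroblast RNA can be part of every sample. The design text calls the samples of a group biological replicates without describing the alleles, clones or cultures, and p-values measure the spread between these samples only. The table names its groups A and B, and neither its header nor a label ties a letter to a genotype. The libraries of each group, recovered from the group means, carry the names A1 and A2 or B1 and B2 here, with 112655210 to 146326307 counts. Gsk3a had 6353 and 7104 normalized counts in A1 and A2 and 1697 and 1347 in B1 and B2. Gsk3b had 5438, 6285, 5051 and 5002 in the same order. Stem cell markers were abundant in every library, with Pou5f1 at 93404 to 125786 and Nanog at 55379 to 77882 normalized counts. For Pou5f1, Nanog, Sox2 and Zfp42 each B library was lower than either A library. Their log2 fold changes for B over A in the authors' deposited table were -0.28, -0.33, -0.44 and -0.30. Esrrb overlapped between the groups, at -0.01. The lowest adjusted p among these markers in that table was 0.224, for Sox2. Any difference in stem cell content was not tested.

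The sequences around the start sites of 2 members are shown because these had the largest differences between the groups, Aass in one direction and Slc25a21 in the other, and that of Dlst is shown as the member with the most normalized counts in group B. Each window runs from 250 bases before to 50 bases after a RefSeq start (GRCm38.p6, the assembly of mm10), 5′ to 3′ on the gene's strand. Aass lies on the minus strand at chr6:23132937-23133236. The starts of Slc25a21 lie on the minus strand at chr12:57197423-57197722 and chr12:57160594-57160893, and that of Dlst on the plus strand at chr12:85110583-85110882. Capitals mark a match to the TCF/LEF core, the letters bound by the factors through which beta-catenin acts.
Aass: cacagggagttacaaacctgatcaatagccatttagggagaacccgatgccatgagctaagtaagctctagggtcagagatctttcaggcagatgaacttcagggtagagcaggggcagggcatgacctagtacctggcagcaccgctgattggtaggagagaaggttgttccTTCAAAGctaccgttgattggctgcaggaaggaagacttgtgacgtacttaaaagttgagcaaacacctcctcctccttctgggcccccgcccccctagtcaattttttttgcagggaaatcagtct
Slc25a21 upstream start: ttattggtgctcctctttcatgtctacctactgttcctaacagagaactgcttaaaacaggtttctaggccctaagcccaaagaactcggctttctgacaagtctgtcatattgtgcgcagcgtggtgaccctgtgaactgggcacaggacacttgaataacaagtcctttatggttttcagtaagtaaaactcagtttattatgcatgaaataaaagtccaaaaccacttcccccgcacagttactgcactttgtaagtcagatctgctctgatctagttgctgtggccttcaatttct
Slc25a21 downstream start: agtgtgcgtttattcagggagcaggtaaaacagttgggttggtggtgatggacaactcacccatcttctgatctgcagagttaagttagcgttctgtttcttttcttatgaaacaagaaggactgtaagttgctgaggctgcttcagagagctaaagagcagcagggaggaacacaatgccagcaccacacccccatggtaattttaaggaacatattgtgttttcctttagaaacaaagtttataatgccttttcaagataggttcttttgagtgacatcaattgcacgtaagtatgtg
Dlst: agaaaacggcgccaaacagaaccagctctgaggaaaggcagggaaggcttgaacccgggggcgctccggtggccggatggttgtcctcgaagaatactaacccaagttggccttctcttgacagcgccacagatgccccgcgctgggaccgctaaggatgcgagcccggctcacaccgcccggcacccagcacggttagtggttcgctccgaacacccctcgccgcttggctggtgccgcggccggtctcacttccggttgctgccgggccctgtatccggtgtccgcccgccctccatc

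The TCF/LEF core was searched as CTTTGAT or CTTTGAA on both strands in the windows of 7 members, which have 8 starts. Windows on chromosome 18 were left out, so Aldh7a1 was not searched. Among the windows searched, the core matched in that of Aass alone, on the strand opposite to the gene, beginning 77 bases before the start. Of 32544 promoter windows of the same length, 8.67% held a match, so a single hit among 8 windows is close to the general frequency. Aass also held a pair of inverted CCAAT boxes and a CRE core (TGACGT, in 7.55% of windows). At least 1 CCAAT in either orientation was present in 37.4% of windows, and the share with a pair was not computed. Dld held 2 CCAAT boxes, both in forward orientation, and 1 CRE core. CpG pairs numbered 5 in the Aass window, 4 and 3 in those of Slc25a21, 9 in Gcdh, 14 in Dhtkd1 and in Aadat, 18 in Dld and 28 in Dlst. The median over the 32544 windows was 7. Any link between CpG pairs and the differences between the groups was not tested. A match or a count of letters describes the sequence and is not a measured site.

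Aass, the enzyme of the entry step (ENSMUSG00000029695, minus strand of chromosome 6, 23072173 to 23132986, 24 exons in its longest coding transcript), had 1718 normalized counts in library A1 and 1567 in library A2, whereas library B1 had 166 and library B2 had 248. The lower A library was 6.31 times the higher B library. Group means were 1643 ± 107 in A and 207 ± 58.2 in B (SD, n = 2 each). For B over A the authors' deposited table lists -2.99 on the log2 scale and an adjusted p of 1.41e-34, so that group B held 12.6% of the level of group A. Among the 30237 genes with a p in that table, 4 had a smaller adjusted p, and 5 of 16553 genes averaging at least 50 had a lower log2 fold change. Aass was the only member past an adjusted p of 0.05, where 3.46% of all 30237 genes were called, 1.92% lower and 1.54% higher in B. With limma on the recovered counts its adjusted p was 0.0255, and 0.162 without A1 or 0.308 without A2. Since this difference chose the set, that count supports nothing further.

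Within group B, Aass had a log2 ratio of -0.58 for B1 over B2. This was similar in size to the standard deviation of that ratio over genes averaging at least 50, which was 0.519. Libraries A1 and A2 differed by a factor of 1.10. The summed level of 22 feeder fibroblast markers also varied within groups, from 81832 in A2 to 170056 in A1 and from 54501 in B1 to 242534 in B2. None of these markers was at 0. Any part of feeder RNA in the Aass values was not tested. The summed level of 22 endoderm markers was 158055 in A1 and 117821 in A2 against 467210 in B1 and 245685 in B2, with 13 of the 22 higher in each B library than in either A library, 3 lower and none at 0. Over all genes averaging at least 10, 26.4% were higher and 26.0% lower in that sense. A list of 15 macrophage markers summed to 28374 and 29872 against 22180 and 29232, with 10 higher and 3 lower in the same sense and none at 0. The authors' deposited table called 1 endoderm marker higher, Foxa1, and of the macrophage markers 4 higher, Lyz2, Spi1, Fcgr3 and Ptprc (the last named after its values were seen), and 1 lower, Mrc1. No feeder marker was called in that table, where 3.46% of all genes with a p were called. With limma on the recovered counts 5 of 21 tested endoderm markers, 1 of 22 feeder markers and 2 of 15 macrophage markers were called. Over all genes limma called 411 of 20465. The macrophage markers were Lyz2 (adjusted p 0.0309) and Spi1 (adjusted p 0.0418), while Fcgr3 (adjusted p 0.0606), Mrc1 (adjusted p 0.109) and Ptprc were not called. The part of endoderm or macrophage cells in the Aass difference was not tested. In a bulk sample, fewer cells with a transcript and less transcript per cell cannot be told apart.

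**Figure D1:**
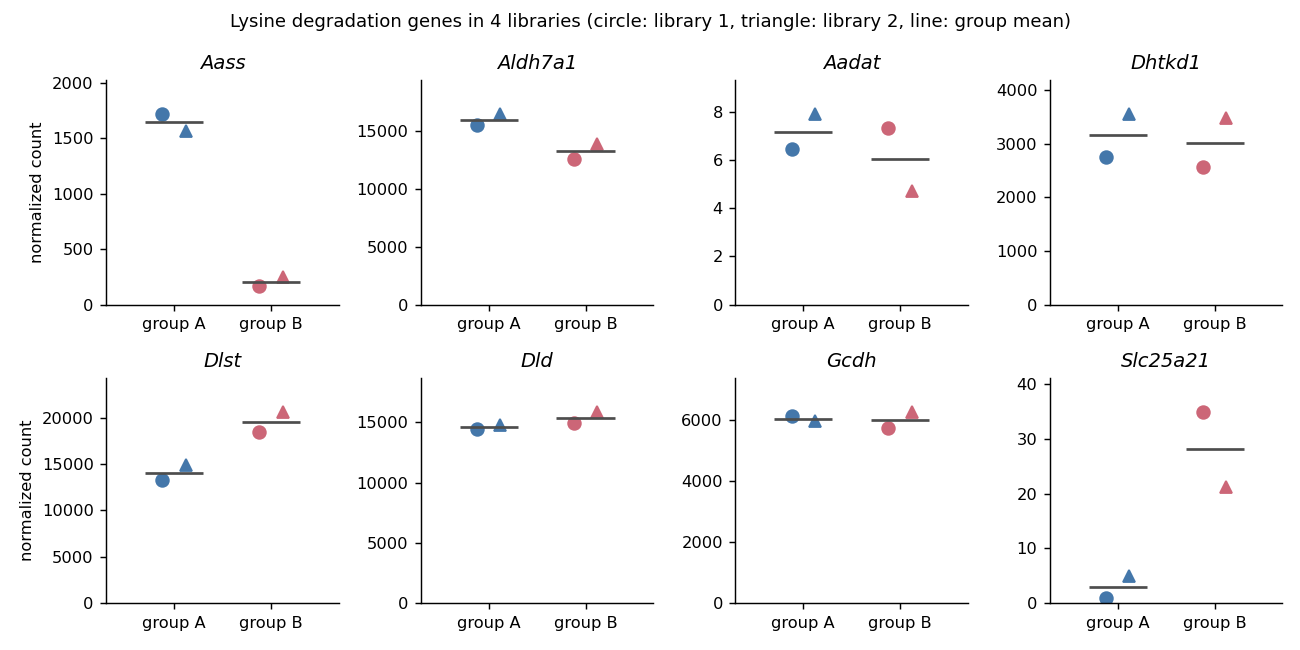
Normalized counts (vertical axis, from 0, a separate scale for each gene) of the 8 lysine degradation genes in groups A and B. Circles are library 1 and triangles library 2 of each group, and lines are group means. Aass lies at 1567 to 1718 in group A and at 166 to 248 in group B, while Dhtkd1, Gcdh and Aadat overlap between the groups.

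Aldh7a1, the second enzyme (ENSMUSG00000053644, chromosome 18, 56509687 to 56572951), had a much smaller difference. Its normalized counts were 15438 (A1), 16425 (A2), 12588 (B1) and 13807 (B2), with no overlap between the groups and group B below. On the log2 scale the authors' deposited table has -0.27 for it, with an adjusted p of 0.752. Per length, Aass ran at 15.1% and 13.0% of Aldh7a1 in the A libraries, against 1.79% and 2.44% in the B libraries. The ratio of the first enzyme to the second was lower in each B library than in either A library.

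Aadat, the transaminase that also acts on kynurenine (ENSMUSG00000057228, chromosome 8, 60505932 to 60545677), was close to the limit of detection. It had 7 and 8 reads in the A libraries and 8 and 4 in the B libraries. The ratio of pooled counts, B over A, was 0.866 with an exact 95% interval of 0.370 to 1.98 that covers counting error only. The interval covers ratios on either side of equality, so it gives no direction, and the smallest detectable difference was not computed. Per length, Aadat reached at most 0.139% of the level of Aldh7a1, in B1.

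The 2-oxoadipate dehydrogenase complex was represented by all its 3 subunits. Dhtkd1, the subunit that is particular to 2-oxoadipate (ENSMUSG00000025815, chromosome 2, 5896115 to 5942792), had normalized counts of 2760 and 3557 in group A and of 2574 and 3474 in group B. Its groups overlapped, and the spread within each was larger than the difference between the means (-0.06 on the log2 scale with an adjusted p of 1 in the authors' deposited table). Dlst, the succinyltransferase core shared with 2-oxoglutarate dehydrogenase (ENSMUSG00000004789, chromosome 12, 85110833 to 85134845), had 13287 and 14887 in group A and 18462 and 20587 in group B. The groups did not overlap, with means of 14087 ± 1131 and 19525 ± 1503 (SD, n = 2 each). The log2 fold change of Dlst was 0.47 in the authors' deposited table, with an unadjusted p of 0.0104 and an adjusted p of 0.179, which did not pass. Dld, the dihydrolipoyl dehydrogenase that also serves the pyruvate, branched-chain and glycine complexes (ENSMUSG00000020664, chromosome 12, 31331277 to 31351453), stayed between 14434 and 15832 in the 4 libraries (0.07 on the log2 scale with an adjusted p of 1 in the authors' deposited table). Relative to Dld per length, Dlst stood at 0.355 and 0.388 in group A and at 0.477 and 0.501 in group B, a ratio of levels that depends on the length used.

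Gcdh, the flavoenzyme that makes crotonyl-CoA (ENSMUSG00000003809, chromosome 8, 84886393 to 84893921), had normalized counts of 6122 and 5970 in group A and of 5742 and 6257 in group B. Its B libraries lay on either side of the A libraries. The authors' deposited table has -0.01 for it on the log2 scale with an adjusted p of 1, and the group means were 6046 ± 108 and 5999 ± 364 (SD, n = 2 each).

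Slc25a21, the mitochondrial carrier of 2-oxoadipate (ENSMUSG00000035472, minus strand of chromosome 12, 56712634 to 57197472), was barely detected in group A. It had 1 and 5 reads in A1 and A2 and 38 and 18 reads in B1 and B2, or 0.921, 4.94, 34.8 and 21.3 normalized counts. Each B library was higher than either A library. The ratio of pooled counts was 10.1 with an exact 95% interval of 4.36 to 28.7 for counting error only, and the authors' deposited table has 3.26 on the log2 scale and an adjusted p of 0.0607. Slc25a21 thus lay just outside the threshold that Aass passed. The last 189 bases of Slc25a21 overlap Pax9, a transcription factor gene on the other strand, which had 12.9 and 20.8 normalized counts in group A and 117 and 75.7 in group B. Reads in the overlap cannot be assigned, as no source used here gives the strand setting, and the value of Slc25a21 is uncertain.

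Overlaps on the opposite strand also touch other members. Aldh7a1 shares 10509 bases with Phax, Gcdh 1829 bases with Syce2 and Dhtkd1 4017 bases with the antisense transcript Gm13267. These are overlaps of whole gene spans with introns, and the overlap of exons was not computed. The merged exons of Aldh7a1 have 5181 bases in all. Phax ran at 6495 to 7971 normalized counts and Syce2 at 5207 to 6365 with no separation of the groups, and Gm13267 had at most 3.96. Aass, Aadat, Dlst and Dld overlap no annotated gene.

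Across the 8 members, group B lay wholly below group A for Aass and Aldh7a1 and wholly above it for Dlst, Dld and Slc25a21. These are 5 of 8, or 5 of the 7 with a mean of at least 10, and 4 when libraries are scaled to total counts, where Dld overlaps. Over the 20465 genes whose mean was 10 or more, 52.5% were so separated, 26.0% below and 26.4% above. Since the rule used this contrast, nothing is read from the members' count. The median log2 fold change of the members was -0.04 in the authors' deposited table and -0.01 without Aass, against 0.01 over all genes with reads. For 5 of the 8 the log2 fold change lay within 0.3 of 0. No enzyme after the entry step was called in either direction.

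Levels can be compared between the enzymes only per length, here as normalized counts per kilobase of merged exons. In group A the order was Dld at 3969 ± 70.3, Aldh7a1 at 3075 ± 135, Gcdh at 2195 ± 39.1, Dlst at 1474 ± 118, Dhtkd1 at 499 ± 88.9, Aass at 430 ± 27.9, Aadat at 3.30 ± 0.475 and Slc25a21 at 0.602 ± 0.584 (SD, n = 2). Dhtkd1 and Aass did not differ beyond their spread there, with 436 and 562 for Dhtkd1 in A1 and A2 against 450 and 411 for Aass. In group B, Aass stood at 54.3 ± 15.3 and Dhtkd1 at 477 ± 100 (SD, n = 2), with no overlap. Gcdh at 2178 ± 132 and Dlst at 2043 ± 157 lay closer together in group B than in group A. Gcdh was still the higher in B1 (2085 against 1931) and in B2 (2272 against 2154). Slc25a21 at 5.76 ± 1.97 stood above Aadat at 2.77 ± 0.846. Aass made up 3.95% and 3.45% of the summed level of the 8 genes in the A libraries and 0.397% and 0.542% in the B libraries. The place of Dlst depends on the length used: its longest coding transcript has 2764 bases against 9559 bases of merged exons, which raises its level in group A from 1474 to 5097 per kilobase, the second of the 8 after Dld at 5746. In group B it then stood first at 7064, above Dld at 6043.

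**Figure D2:**
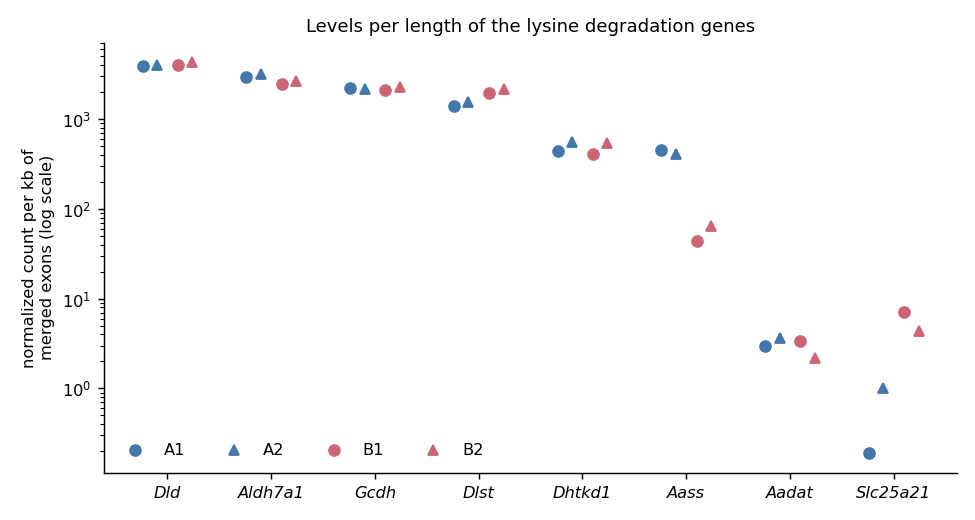
Normalized counts per kilobase of merged exons (log axis) of the 8 genes in each library, ordered by the mean of group A. Blue marks group A and red group B, circles library 1 and triangles library 2. Aass lies beside Dhtkd1 in group A and 7.93-fold lower in group B, and Aadat and Slc25a21 are lowest.

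Linked pathways were described with 12 lists of genes, of which 126 genes had reads. The authors' deposited table called 5 of them higher and 4 lower in B, 7.14% beside the 3.46% of all genes, with a median log2 fold change of -0.01. All 466 higher and 581 lower calls over all genes fell among the 20465 genes averaging at least 10. The 3.46% also counts genes with fewer reads, and a share among genes of like abundance was not computed. A further 7 genes of the lists were at 0 in all libraries, and 5 of those (Hsd17b10, Idh3g, Pdha1, Slc6a14 and Slc7a3) are on the X chromosome. All 941 protein-coding genes of the X chromosome are listed at 0 in this table, as are the 183 of the Y and the 13 of the mitochondrial genome, so these values say nothing about expression. The other 2, Bbox1 and Tmlhe of carnitine synthesis, are listed at 0 as well, and Tmlhe had no position in the annotation used, so it cannot be set apart from the X-linked genes.

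In the side branches of lysine breakdown, 1 of 7 measured genes was higher and 1 lower. Sccpdh, named for its likeness to saccharopine dehydrogenase, had 8051 and 7238 normalized counts in group A and 21259 and 19451 in group B. Its value in the authors' deposited table was 1.41 in log2 units with an adjusted p of 7.61e-12, opposite in direction to Aass. Hykk, the kinase of hydroxylysine, had 490 and 621 in group A and 301 and 293 in group B, with an adjusted p of 0.0138 in the authors' deposited table and 0.0952 with limma on the recovered counts. Pipox, the oxidase of the alternative pipecolate route, was at 2880, 2820, 1798 and 2685 in A1, A2, B1 and B2 (adjusted p 0.772, authors' deposited table). Crym, which reduces cyclic ketimines of that route, was at 579, 501, 1198 and 2159 (adjusted p 0.231, authors' deposited table). Pipox and Crym were named after their values were seen.

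Among carriers of lysine and other basic amino acids, 1 of 11 measured genes was higher and 1 lower. Slc7a2, a cationic amino acid transporter of the plasma membrane, had 395 and 371 normalized counts in group A and 1224 and 1075 in group B (1.59 on the log2 scale and an adjusted p of 5.20e-10 in the authors' deposited table). Slc7a7, the light chain of an exchanger that exports basic amino acids, had 6773, 7605, 3955 and 4402 (-0.78 in log2 units with an adjusted p of 0.00144 in the authors' deposited table). Slc7a1, the main cationic transporter of many cells and named here after its values were seen, overlapped between the groups at 14832 to 18272.

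The kynurenine pathway brings tryptophan to 2-oxoadipate, where it joins lysine breakdown, and 2 of its 11 measured genes were higher and 1 lower. Ido2 and Ido1 open the ring of tryptophan. Ido2 had 26.7 and 22.7 normalized counts in group A and 197 and 214 in group B (3.06 in log2 units with an adjusted p of 1.55e-10 in the authors' deposited table). Ido1 had a single read in group A and 69 reads in group B, a ratio of pooled counts of 74.7 with an exact 95% interval of 13.0 to 2993 for counting error only (adjusted p 0.000280, authors' deposited table). Kyat3, a kynurenine aminotransferase, had 1705 and 1656 in A and 1052 and 1058 in B, with an adjusted p of 0.0309 in the authors' deposited table and 0.0728 with limma. The later enzymes of the pathway, Kmo and Haao, were low in every library, at 4.58 to 14.2 and 23.8 to 67.2, and were named after their values were seen.

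Of 18 measured genes of branched-chain amino acid breakdown, 1 was lower and 0 higher. This was Bcat2, the mitochondrial transaminase, with 19742 and 22754 in group A and 11363 and 14317 in group B (-0.73 in log2 units with an adjusted p of 0.00257 in the authors' deposited table; adjusted p 0.0644 with limma). Of 14 other aldehyde dehydrogenases, 1 was higher and 0 lower. Aldh1l1, which oxidises formyl-tetrahydrofolate, had 1255 and 1220 in group A and 2269 and 2454 in group B (0.93 in log2 units with an adjusted p of 0.000282 in the authors' deposited table).

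No gene was called in the other 7 lists, which held 65 measured genes: the steps after crotonyl-CoA, the electron transfer flavoproteins, carnitine synthesis, the complexes that share Dld, lipoate attachment, other amino acid breakdown and the citric acid cycle. By the deposited test 7 of these 65 had an unadjusted p under 0.05, and limma called 0 of the 59 it could test. The share of all genes under that unadjusted p in the deposited test was not computed, so nothing is read from the 7. With limma on the recovered counts, 4235 of all 20465 tested genes had an unadjusted p under 0.05, and 411 were called. Hadha, a long-chain subunit, and Acat2, a thiolase, were the 2 most abundant genes of the list after crotonyl-CoA. They were at 16534 to 18147 and 12302 to 17200 normalized counts. In that list Echs1 was at 8023 to 9160 and Acat1 at 2431 to 2926. Hadh had group means of 9634 in A and 13849 in B. Its deposited log2 fold change was 0.52, with an unadjusted p of 0.00317 and an adjusted p of 0.0784. Of the 7 genes of that list, group B lay wholly above group A for 1, Hadh, and wholly below for 3. Over all genes averaging at least 10, 26.4% lay wholly above and 26.0% wholly below, so nothing is read from these counts. Echs1, Acat1 and Hadh were named after their values were seen. Etfa and Etfdh, which pass the electrons of Gcdh to the respiratory chain, were at 9387 to 12763 and 3221 to 4032. Gcsh and Gldc of the glycine complex were at 21807 to 25056 and 14682 to 25812, and Tdh, the threonine dehydrogenase abundant in mouse embryonic stem cells, was at 72383 to 83380. Lias, which makes lipoate, was at 8144 to 8700. Further abundant genes of these lists had log2 fold changes of -0.15 (Nfu1, which carries iron-sulfur clusters), 0.18 (Glud1, glutamate dehydrogenase), 0.06 (Mdh2, malate dehydrogenase), -0.01 (Shmt1, a serine hydroxymethyltransferase) and 0.33 (Aldh9a1, an aldehyde dehydrogenase of carnitine synthesis) in the authors' deposited table.

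**Figure D3:**
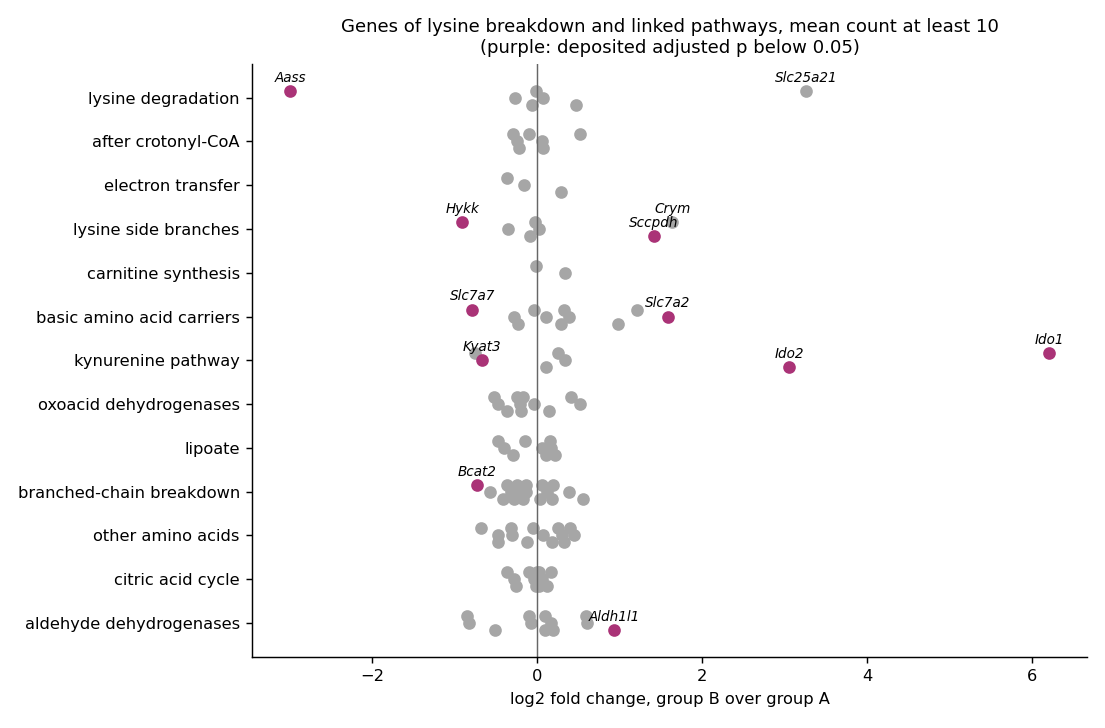
Log2 fold change of group B over group A (horizontal axis) for genes averaging at least 10 in the lysine degradation set and 12 linked lists (rows), where purple marks a deposited adjusted p below 0.05 and points are spread vertically for sight. Aass at -2.99 stands alone on the left, while Slc25a21 at 3.26 is not called, and the value of Ido1 rests on 1 read in group A.

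None of the 4 named neighbours of Aass on the chromosome was called. Ptprz1, a receptor phosphatase whose 3′ end lies 19257 bases from that of Aass, had 136 and 158 normalized counts in group A and 580 and 310 in group B (1.60 in log2 units with an adjusted p of 0.241 in the authors' deposited table). On the other side, Cadps2, a factor of vesicle release, had 40.5 and 48.4 in group A and 80.7 and 111 in group B (adjusted p 0.277, authors' deposited table). Fam3c, a secreted protein gene, stayed between 3763 and 4041, and Iqub was at 95.8 and 106 in group A and 45.8 and 54.4 in group B (adjusted p 0.310, authors' deposited table). Of these 4, the 2 nearest to Aass on either side had higher means in group B.

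Near Slc25a21, 2 neighbours were called. Pax9 was higher in group B (2.52 in log2 units with an adjusted p of 0.00109 in the authors' deposited table), and so was Foxa1, an endoderm transcription factor gene that lies 343156 bases beyond the start of Slc25a21, with 23.0 and 30.7 normalized counts in group A and 270 and 144 in group B (2.95 in log2 units with an adjusted p of 0.0192 in the authors' deposited table). Mipol1 and Prps1l3, which lie between Slc25a21 and Foxa1, overlapped between the groups, with log2 fold changes of -0.09 and 0.02 in the authors' deposited table. Pax9, Mipol1 and Prps1l3 were named after their values were seen. Slc25a21 was highest in B1, as was the sum of endoderm markers given above. In group A the 2 went opposite ways, with 1 read of Slc25a21 in A1 and 5 in A2 against marker sums of 158055 and 117821. The part of endoderm cells in the level of Slc25a21 was not tested.

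**Figure D4:**
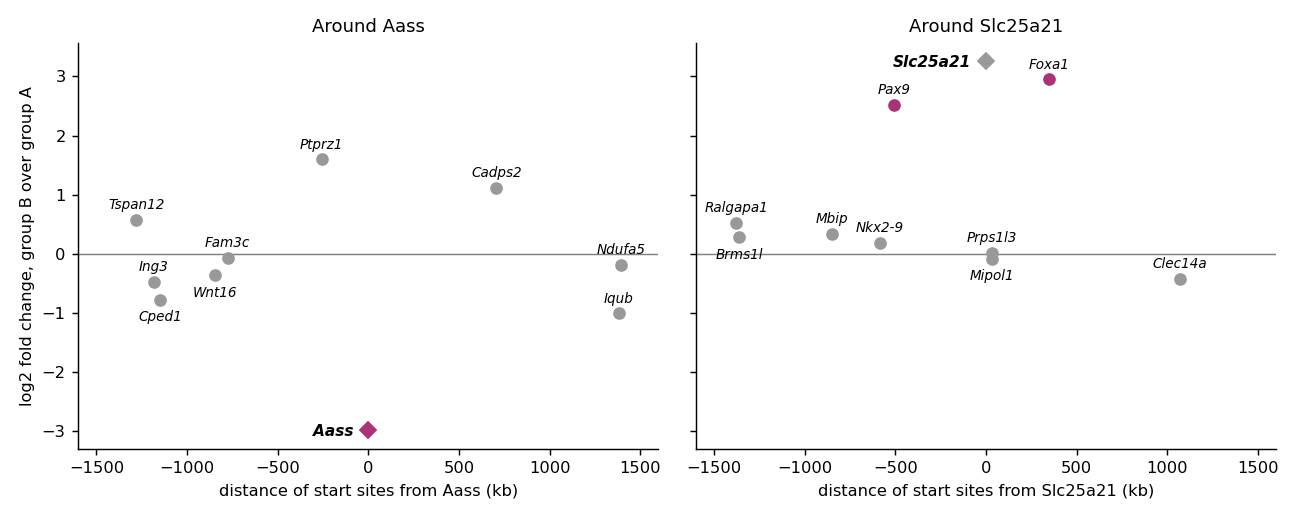
Log2 fold change of group B over group A (vertical axis) of protein-coding genes averaging at least 10 within 1500 kb of the start of Aass (left) and of Slc25a21 (right), by distance between start sites in kilobases, with higher coordinates to the right. Diamonds are the members, and purple marks a deposited adjusted p below 0.05. Aass at -2.99 has no called neighbour, and Pax9 at 2.52 and Foxa1 at 2.95 are called near Slc25a21.

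The 5 genes whose pattern over the 4 libraries was nearest to that of Aass were Cdkn1c, Pkhd1, Pdyn, Trav5n-2 and Spink1, of 13007 named genes averaging at least 50. Likeness is the root-mean-square difference of log2(normalized count + 1) after centring each gene on its mean. It was 0.211 for Cdkn1c, a cell-cycle inhibitor, and 0.215 for Pkhd1, a ciliary membrane protein, and ran to 0.309 for Spink1. Cdkn1c had 887 and 1088 normalized counts in group A and 125 and 145 in group B, and Pkhd1 had 341 and 286 against 40.3 and 40.2. With 4 libraries such a pattern is mostly the difference between the groups, and all 5 were called lower in the authors' deposited table.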

How the data were processed

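RNA of 4 samples was sequenced from stranded TruSeq libraries, per the labels' protocols. Per the submitters' processing notes the tools were STAR and DESeq and the build mm10, with no versions, and the sources used here name neither the counter, its strand setting nor the annotation. The authors' deposited table gives each group's mean normalized count (a signal: counts divided by size factors), the fold change as a ratio, its log2 and p-values. Its test was used as deposited, at an adjusted p of 0.05. It has 46608 rows, of which 5 repeat a gene ID and were used once.

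Each group mean is a sum of whole reads of 2 libraries times 2 steps. The whole reads were recovered for all 28616 genes with a mean in A and all 28353 in B, within a tolerance of 1e-06 of a whole number. A second pair lay within that tolerance for 1700 genes in A and 11 in B, always at least 20.5 times farther off than the pair taken. As library 1 the one with the larger total was taken. The alternative was limma 3.58.1 (R 4.3.3, trend option, Benjamini-Hochberg adjusted two-sided p-values), fitted to log2(normalized count + 1) where the mean was 10 or more, and other pseudocounts, filters, scalings and left-out libraries were tried. Both steps were tested on simulated data. Exact 95% intervals cover counting error only. Positions and lengths came from GENCODE M21, on the same build, and promoter windows from RefSeq. 46005 gene IDs had a position.

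The members and lists were chosen with earlier results of these data known. Named genes were the members, Gsk3a and Gsk3b, up to 4 called genes of each list by adjusted p or else its 2 most abundant, the 5 nearest patterns and the nearest 2 neighbours of Aass on each side with a mean of at least 10. A gene that this rule names is not reported here.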

Additional observations from a re-analysis of the deposited data

How the results depend on the processing

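No paired analysis was possible because the recovered libraries carry no replicate number of the labels. Aass was called by limma in the 7 fits on all libraries, with other pseudocounts, filters and scalings, at log2 fold changes of -3.03 to -2.98, and no other member was called in those of the 11 limma fits that tested it (10 for Slc25a21, 1 for Aadat, all 11 for the rest). Leaving out 1 library gave -3.30 to -2.72 for Aass. Without A1 and without A2 it lost the call (adjusted p 0.162 and 0.308), so the count of members called ranged from 0 to 1. In those fits limma called 0 genes in all, with 2420 and 2034 at an unadjusted p under 0.05, and the lone A library is assumed to vary like the B libraries. Over all genes the deposited test called 1047 and limma 411, or 397 with a pseudocount of 0.5, 495 with 5, 521 with a mean of at least 1, 439 with at least 50, 570 with upper-quartile scaling, 448 with scaling to total counts, and 0 to 1111 with 1 library left out. Linked pathway genes called lower numbered 4 in the deposited test, 1 in limma and with each of those settings except upper-quartile scaling (2), and 0 to 2 with 1 library left out. Those called higher stayed at 4 or 5, with 0 to 9 when 1 library was left out. Beyond the stated construction of these fits, the cause was not tested. With the longest coding transcript in place of merged exons, 5 of 8 members kept their rank in group A. Depth limits what can be said of Aadat and Slc25a21, which rest on few reads.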
